A study of Mus musculus with 6 samples.

Results

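The genes described here are 10 that write, read back or remove DNA methylation in mouse cells: Dnmt1, Uhrf1, Dnmt3a, Dnmt3b, Tet1, Tet2, Tet3, Idh1, Idh2 and Tdg. They were taken by symbol from the count files, 10 of the 24063 gene symbols listed, and all 10 passed the filter on low counts that left 14145 genes for testing. RNA sequencing was performed on LSK cells, the lineage-negative, Sca-1+ and c-Kit+ fraction of bone marrow that holds blood stem cells and early progenitors. The cells came from C57BL/6 mice, 3 of genotype Asxl2-/- and 3 wild-type controls, and were collected 4 weeks after injection of pIpC, a double-stranded RNA that switches on the interferon-responsive Mx1 promoter. According to the study's methods both groups carried the Mx1-cre transgene, so controls shared the Cre and the pIpC, and only the Asxl2-/- mice carried the floxed Asxl2 alleles. Mx1-cre also acts outside blood, and the labels do not give the age of the mice.

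The methyl group on cytosine in CpG dinucleotides is copied at each replication by Dnmt1, which Uhrf1 recruits to hemimethylated DNA. New methylation is laid down by Dnmt3a and Dnmt3b. The Tet enzymes oxidize 5-methylcytosine with 2-oxoglutarate as co-substrate, Idh1 and Idh2 make 2-oxoglutarate from isocitrate, and the glycosylase Tdg cuts out the most oxidized bases for repair. DNMT3A, TET2, IDH1 and IDH2 are among the genes most often mutated in human myeloid leukaemia, and loss of Dnmt3a or Tet2 in mice alters stem cell self-renewal.

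For 4 of these genes RefSeq lists transcripts that begin at different positions, and the upstream sequences of 2 starts of each are shown because the results below turn on which start carried the counts. Each is the 250 bases before an annotated start from the RefSeq promoter table on build GRCm38.p6, printed 5′ to 3′ on the strand of the gene with every CpG dinucleotide in capitals. The windows are chr9:20952980-20953229 (minus strand) for the somatic start of Dnmt1 and chr9:20959889-20960138 (minus strand) for its oocyte start. They are chr17:56303087-56303336 and chr17:56304063-56304312 (plus strand) for the upstream and downstream starts of Uhrf1. They are chr1:65179143-65179392 and chr1:65186480-65186729 (minus strand) for the downstream and upstream starts of Idh1. For Dnmt3a they are chr12:3806730-3806979 (plus strand) for the long form and chr12:3891494-3891743 (plus strand) for the short form, whose start lies inside the gene.
Dnmt1 somatic start: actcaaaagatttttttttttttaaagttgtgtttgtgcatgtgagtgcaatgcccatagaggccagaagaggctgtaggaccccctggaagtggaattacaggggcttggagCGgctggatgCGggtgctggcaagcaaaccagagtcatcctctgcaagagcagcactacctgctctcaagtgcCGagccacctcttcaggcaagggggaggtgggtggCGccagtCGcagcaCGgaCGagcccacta
Dnmt1 oocyte start: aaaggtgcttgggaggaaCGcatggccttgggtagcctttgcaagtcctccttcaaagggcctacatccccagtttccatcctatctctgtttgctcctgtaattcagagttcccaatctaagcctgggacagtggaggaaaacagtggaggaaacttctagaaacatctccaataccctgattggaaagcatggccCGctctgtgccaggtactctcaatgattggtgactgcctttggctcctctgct
Uhrf1 upstream start: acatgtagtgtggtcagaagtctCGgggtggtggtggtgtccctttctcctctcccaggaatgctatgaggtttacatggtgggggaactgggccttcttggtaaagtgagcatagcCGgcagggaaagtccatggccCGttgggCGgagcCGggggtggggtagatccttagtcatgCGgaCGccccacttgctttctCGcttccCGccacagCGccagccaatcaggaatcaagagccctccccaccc
Uhrf1 downstream start: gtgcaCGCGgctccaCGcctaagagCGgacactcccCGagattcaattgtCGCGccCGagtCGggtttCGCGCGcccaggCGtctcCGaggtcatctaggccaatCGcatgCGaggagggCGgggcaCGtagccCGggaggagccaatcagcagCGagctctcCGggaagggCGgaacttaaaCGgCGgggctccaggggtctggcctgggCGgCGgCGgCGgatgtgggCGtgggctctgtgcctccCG
Idh1 downstream start: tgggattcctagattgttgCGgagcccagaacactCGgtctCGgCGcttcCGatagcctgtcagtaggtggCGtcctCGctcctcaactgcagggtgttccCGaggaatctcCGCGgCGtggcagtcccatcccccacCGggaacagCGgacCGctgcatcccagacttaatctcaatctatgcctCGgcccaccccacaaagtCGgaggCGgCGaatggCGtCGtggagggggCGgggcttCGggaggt
Idh1 upstream start: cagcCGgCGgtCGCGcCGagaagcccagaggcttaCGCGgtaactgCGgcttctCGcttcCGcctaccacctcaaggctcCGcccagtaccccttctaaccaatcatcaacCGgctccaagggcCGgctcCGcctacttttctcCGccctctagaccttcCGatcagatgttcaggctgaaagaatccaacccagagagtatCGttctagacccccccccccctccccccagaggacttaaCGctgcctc
Dnmt3a long-form start: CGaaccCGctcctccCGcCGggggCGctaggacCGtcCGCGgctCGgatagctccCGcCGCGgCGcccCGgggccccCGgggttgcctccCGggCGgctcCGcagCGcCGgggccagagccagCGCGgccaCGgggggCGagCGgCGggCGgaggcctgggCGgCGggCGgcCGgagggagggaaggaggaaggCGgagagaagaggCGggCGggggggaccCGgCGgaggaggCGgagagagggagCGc
Dnmt3a short-form start: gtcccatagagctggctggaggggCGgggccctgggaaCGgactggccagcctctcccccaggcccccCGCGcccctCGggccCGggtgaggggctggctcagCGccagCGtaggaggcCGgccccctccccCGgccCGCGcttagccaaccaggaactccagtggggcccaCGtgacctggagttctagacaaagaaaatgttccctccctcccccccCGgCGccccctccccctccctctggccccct

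The windows differ widely in CpG content. The oocyte start of Dnmt1 held 2 CpG dinucleotides and its somatic start 7, against 38 at the long-form start of Dnmt3a and 15 at its short-form start. The upstream start of Uhrf1 held 10 and its downstream start 30, and Idh1 had 22 at the downstream and 18 at the upstream start. The RefSeq table held 16 windows for the 10 genes, at least 1 each, with a median of 18.5 CpG dinucleotides, whereas the median over all 32851 windows in the table was 6. At least 10 were found in 14 of the 16, compared with 37.8% of all windows, and the exceptions were the somatic and oocyte starts of Dnmt1. Short motifs were also searched on both strands. The E2F core GCGGGAA was found in 1 of the 16 windows, that of the upstream start of Uhrf1, and in 3.82% of all windows. GGGCGG (a GC box) was found in 13 of 16 and in 32.7% of all, CCAAT in 8 of 16 and in 33.8% of all, and TATAAA in 0 of 16 and in 12.4% of all. These matches describe the letters in the windows only.

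Counts summed to between 25528540 and 26161456 in the Asxl2-/- libraries 1 and 3 and to 29136012 in control library 2, and to between 53147729 and 55032075 in the other libraries. The files were of 2 kinds. Asxl2-/- replicates 1 and 3 and control replicate 2 were deposited as counts per transcript (gene-count files), and Asxl2-/- replicate 2 and control replicates 1 and 3 as counts per exon (exon-count files). A read across a splice junction may enter an exon sum repeatedly. Levels were therefore compared within each kind of file, and every test carried the kind of file as a term. The deleted exon checked the labels in the exon-count files. Exon 11 of Asxl2 had 28 counts in Asxl2-/- replicate 2, against 457 and 492 in control replicates 1 and 3, which was 0.583%, 10.3% and 12.0% of the exon counts of the gene, and the gene-count files do not show single exons. LSK markers were detected 10 of 10, with fitted log2 fold changes from -1.34 to 1.52, 8 above 0 and 2 below. Of these, 2 were higher in Asxl2-/- cells with edgeR at an adjusted p under 0.05, Slamf1 (1.52) included, and 0 were lower. edgeR called 2.34% of all genes at that threshold. Of 17 tested markers of other blood and endothelial cells, 4 were also higher (the B-lineage genes Cd79a and Ebf1 and the megakaryocyte gene Pf4 among them) and 0 lower. DESeq2 called 6 of these markers higher and 3 lower, beside 16.5% of all genes called by that tool. The B-lineage markers summed to 70.0 to 79.2 CPM (counts relative to the TMM-scaled library size) in Asxl2-/- and 16.1 to 26.1 in control libraries, and the megakaryocyte markers to 181 to 465 and 104 to 260. The erythroid markers went the other way, at 64.6 to 103 and 128 to 185, as did the T-cell markers, at 6.80 to 8.53 and 9.09 to 17.9. Over all 17 the sums ran from 2377 to 5968 and from 2564 to 6582, most of it the myeloid gene Mpo (1749 to 4732 and 1850 to 5506), with no marker at 0 in any library. Xist was high in every Asxl2-/- library (49540, 57004 and 66689 counts, against 3194, 590 and 615 in controls), and the Y-linked Ddx3y had 1, 0 and 2 counts against 4325, 2837 and 4807. Genotype and sex therefore cannot be told apart in any comparison below, although all 10 genes are autosomal. The part of the cell-type markers in the results was not tested, and in sorted bulk cells fewer cells of a type and less RNA per cell cannot be told apart.

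Per kilobase of exon, Idh2, Dnmt1 and Uhrf1 were the most abundant of the 10 genes and Tet2 and Tet1 the least in both kinds of file. In the gene-count files the mean level was 133 CPM per kb for Idh2, 111 for Dnmt1 and 88.6 for Uhrf1. It was 22.8 for Dnmt3b and 20.9 for Idh1, then 12.5 for Tet3, 11.8 for Tdg and 10.9 for Dnmt3a, and 4.25 for Tet2 and 2.39 for Tet1. Ranked among all 14145 tested genes by the mean level over all 6 libraries, which mixes the kinds of file, Idh2 stood at the 96.7th percentile and Tet1 at the 24.5th. Several neighbours in this order did not differ beyond the spread of the 3 libraries. Dnmt3b (17.9 to 27.9) overlapped Idh1 (16.2 to 27.6), and Tdg (10.5 to 13.5) overlapped both Tet3 (12.1 to 12.8) and Dnmt3a (10.2 to 11.8). In the exon-count files the order was the same except that Tdg (12.8 to 17.9) and Dnmt3a (10.5 to 11.4) stood above Tet3 (7.62 to 8.18).

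**Figure D1:**
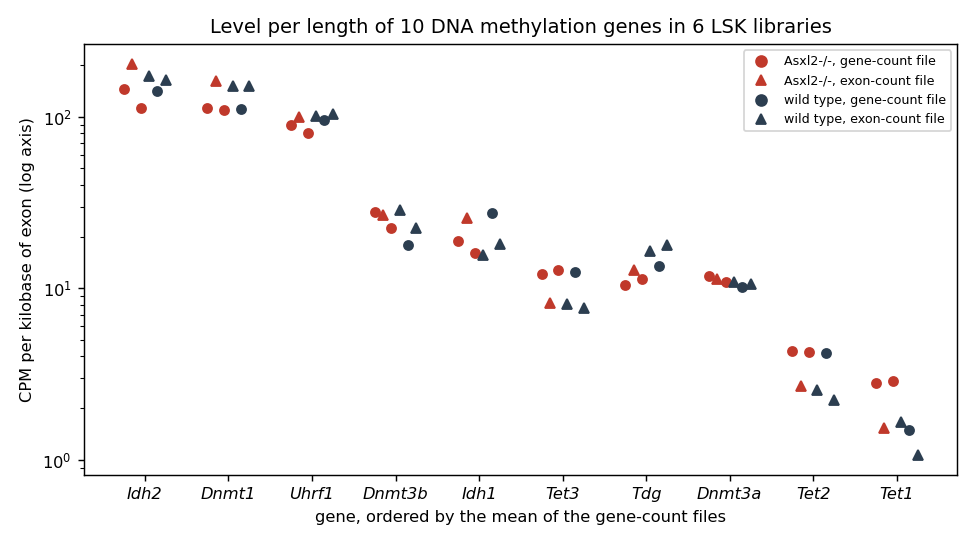
Level of each gene per length, as CPM per kilobase of summed exon length on a log axis, in the 6 LSK libraries. Red marks Asxl2-/- and dark blue control libraries, circles gene-count files and triangles exon-count files. Idh2, Dnmt1 and Uhrf1 lie between 80.0 and 205, Tet1 lies between 1.06 and 2.89, and for Dnmt1, Tet2 and Tet3 the symbols separate by the kind of file and not by genotype.

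The comparison of Asxl2-/- with control LSK cells addresses how transcript levels differ on loss of Asxl2, a partner of the histone H2A deubiquitinase Bap1. None of the 10 genes passed the threshold with edgeR (0 of 10 at a Benjamini-Hochberg adjusted p under 0.05), against 2.34% of all genes tested, 331 of 14145. At an unadjusted p under 0.05, 1 of 10 passed, Tdg, compared with 27.7% of all genes. With DESeq2 1 of 10 passed, again Tdg, against 16.5% of all genes, and with limma-voom 0 of 10, against 3.04%. With the fitted file-kind effect taken out, the groups did not overlap for 3 of 10 (Dnmt3a, Uhrf1 and Tdg), a share below the 44.3% over all genes. Fold changes were small. Their median size was 0.10 on the log2 scale, against 0.24 over all genes tested, and the median signed values were 0.06 and 0.00. The fitted value was above 0 for 7 genes and below 0 for 3, although the estimates of Dnmt1 and Tet3 were negative with median-ratio scaling and that of Idh1 was positive with scaling by library size alone. In 7 of 10 the sign was the same in both kinds of file. The 95% interval lay within 2-fold either way for 9 of 10, the exception being Tet1, and within 1.5-fold for 6 of 10.

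**Figure D2:**
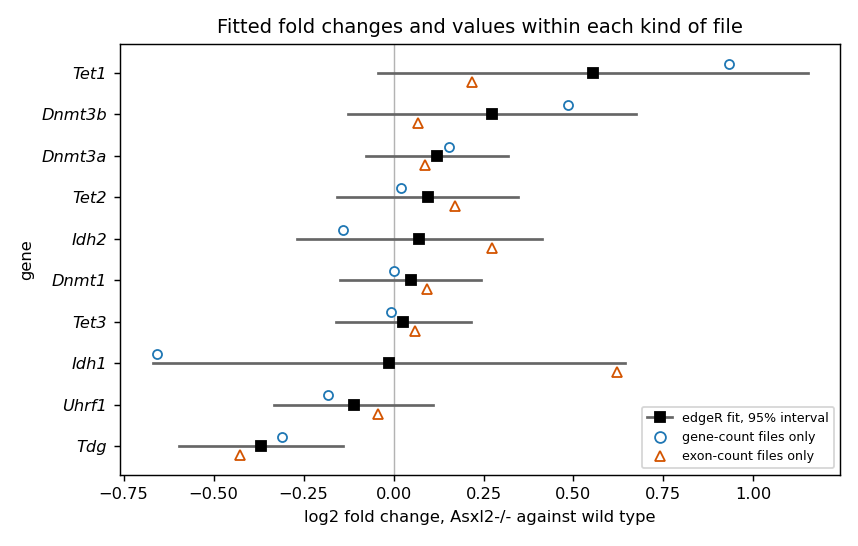
Log2 fold change of each gene in Asxl2-/- against control LSK cells. Squares and lines give the edgeR estimate with its 95% interval, open circles the value within the gene-count files and open triangles the value within the exon-count files, each with 1 group represented by a single library. The interval of Tdg, from -0.60 to -0.14, is the only one that does not cross 0, and the circles and triangles of Idh1 lie on opposite sides of 0.

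The maintenance genes Dnmt1 and Uhrf1 were abundant in both groups, and neither passed the threshold. Dnmt1 had 663 and 646 CPM in Asxl2-/- replicates 1 and 3 and 654 in control replicate 2, all within the gene-count files. In the exon-count files it had 953 CPM in Asxl2-/- replicate 2 and 892 and 895 in control replicates 1 and 3. The groups overlapped in the first kind of file, and the Asxl2-/- library was the highest in the second. The log2 fold change was 0.05 (SE 0.081, 95% interval -0.15 to 0.24, edgeR adjusted p = 0.737). Uhrf1, which binds hemimethylated CpG and brings Dnmt1 to it, had 320 and 286 CPM in Asxl2-/- against 343 in control in the gene-count files. In the exon-count files it had 355 CPM against 359 and 372. Asxl2-/- libraries were the lowest in both kinds of file, and the log2 fold change was -0.11 (SE 0.091, interval -0.33 to 0.11, adjusted p = 0.457 with edgeR). On mm10, the transcript chosen to represent Uhrf1 spans chr17:56303337-56323486 and that chosen for Dnmt1 spans chr9:20907206-20952623. The somatic first exon of Dnmt1 (chr9:20952708-20952979) lies outside that span.

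Among the de novo enzymes, Dnmt3a (chr12:3806980-3914443) was slightly higher in all 3 Asxl2-/- libraries, but the interval of its fold change included 0. Its levels were 115 and 105 CPM in Asxl2-/- replicates 1 and 3 against 99.1 in control replicate 2, and 111 in Asxl2-/- replicate 2 against 106 and 102 in control replicates 1 and 3. The groups did not overlap within either kind of file, and the log2 fold change was 0.12 (SE 0.081, interval -0.08 to 0.32, edgeR adjusted p = 0.365). Dnmt3b (chr2:153649449-153687730), the other de novo enzyme, had 121 and 97.6 CPM in Asxl2-/- against 77.5 in control in the gene-count files. In the exon-count files it had 115 CPM against 124 and 97.5, so the Asxl2-/- library fell between the controls. The log2 fold change was 0.27 (SE 0.164, interval -0.13 to 0.67, edgeR adjusted p = 0.315), and it ranged from 0.06 without control replicate 2, when only the exon-count files bear on it, to 0.49 without Asxl2-/- replicate 2, not passing the threshold without any single library. Dnmt1 supplied 74.0% to 79.8% of the summed per-kilobase level of the 3 methyltransferases in the gene-count files and 79.3% to 82.2% in the exon-count files. Dnmt3a supplied 7.30% to 7.77% and 5.68% to 5.70%.

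Tet3 was the most abundant Tet transcript in every library and Tet1 the least, and none of the 3 passed the threshold. Tet3 (chr6:83362374-83441678) took 63.1% to 68.7% of the summed per-kilobase level of the 3 Tet genes in the gene-count files and 65.7% to 69.9% in the exon-count files. Tet2 (chr3:133463677-133544390) took 21.3% to 23.1% and 20.4% to 21.7%. In the gene-count files Tet1 took 14.5% in both Asxl2-/- replicates 1 and 3, against 8.18% in control replicate 2. In the exon-count files it took 12.4% in Asxl2-/- replicate 2, between the 13.4% and 9.74% of control replicates 1 and 3. Tet1 (chr10:62804570-62880014) had 39.3 and 40.8 CPM in Asxl2-/- replicates 1 and 3, against 21.0 in control replicate 2. In the exon-count files it had 21.7 CPM in Asxl2-/- replicate 2, between the 23.2 and 14.9 of control replicates 1 and 3. The difference was thus large in one kind of file (0.93 on the log2 scale) and smaller in the other (0.22). The fitted log2 fold change was 0.55 (SE 0.245, interval -0.04 to 1.15, edgeR adjusted p = 0.203). It was 0.76 and passed the threshold without control replicate 1 (adjusted p = 0.0434 with edgeR), 0.18 without control replicate 2 and 0.93 without Asxl2-/- replicate 2.
Tet2, the Tet gene most often mutated in myeloid leukaemia, had 39.4 and 39.0 CPM in Asxl2-/- against 38.6 in control in the gene-count files, and 24.7 against 23.5 and 20.4 in the exon-count files. Its log2 fold change was 0.09 (SE 0.103, interval -0.16 to 0.35, edgeR adjusted p = 0.579). Tet3 had 132 and 139 CPM in Asxl2-/- against 136 in control, and in the exon-count files 89.2 against 87.9 and 83.1. Its log2 fold change was 0.03 (SE 0.077, interval -0.16 to 0.22, edgeR adjusted p = 0.852), the smallest standard error among the 10 genes.

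The isocitrate dehydrogenases showed no common direction between the kinds of file. Idh1 (chr1:65158616-65186479), the cytosolic enzyme, had 43.3 and 36.9 CPM in Asxl2-/- replicates 1 and 3 against 63.1 in control replicate 2. In the exon-count files the order was the opposite, with 58.9 CPM in Asxl2-/- replicate 2 against 35.6 and 41.3 in control replicates 1 and 3. The log2 differences within the gene-count and exon-count files were -0.66 and 0.62, and the fitted value was -0.01 (SE 0.270, interval -0.67 to 0.64, edgeR adjusted p = 0.978). Control replicate 2 and Asxl2-/- replicate 2 were the high libraries. Without the first the fitted value was 0.62 and without the second -0.65, with edgeR adjusted p values of 0.147 and 0.0749. Idh2 (chr7:80094847-80115350), the mitochondrial enzyme, had 247 and 193 CPM in Asxl2-/- against 241 in control in the gene-count files, and 348 against 296 and 281 in the exon-count files. Its log2 fold change was 0.07 (SE 0.140, interval -0.27 to 0.41, edgeR adjusted p = 0.774). Idh2 supplied 83.7% to 88.5% of the per-kilobase level of the pair in the gene-count files and 88.8% to 91.8% in the exon-count files.

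Tdg (chr10:82629838-82650494), the glycosylase that removes the most oxidized cytosines, had a lower level in each Asxl2-/- library than in the controls of the same kind of file. It had 33.9 and 36.6 CPM in Asxl2-/- replicates 1 and 3 against 43.6 in control replicate 2, and 41.1 in Asxl2-/- replicate 2 against 52.8 and 57.7 in control replicates 1 and 3. The groups did not overlap, with mean log2 CPM after removal of the file kind of 5.26 ± 0.06 in Asxl2-/- and 5.63 ± 0.07 in control cells (SD, n = 3 libraries each). The log2 fold change was -0.37 (SE 0.0935, interval -0.60 to -0.14), with an unadjusted p of 0.0072 and an adjusted p of 0.0855 by edgeR. DESeq2 gave -0.42 with an adjusted p of 0.0102, which passes the threshold, and limma-voom gave -0.37 with an adjusted p of 0.0791, which does not. Leaving out each library in turn kept it between -0.43 and -0.31. In each of the 10 listed exons of Tdg, Asxl2-/- replicate 2 had fewer CPM than both control exon-count libraries. Such uniformity was not particular to Tdg. The same library lay above both controls in 11 of 11 exons of Idh2, 8 of 9 of Idh1 and 32 of 39 of Dnmt1. Exons of a gene share their libraries and are not replicates. The RefSeq gene table also lists the copies Tdg-ps and Tdg-ps2, so some Tdg reads may have been assigned uncertainly.

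**Figure D3:**
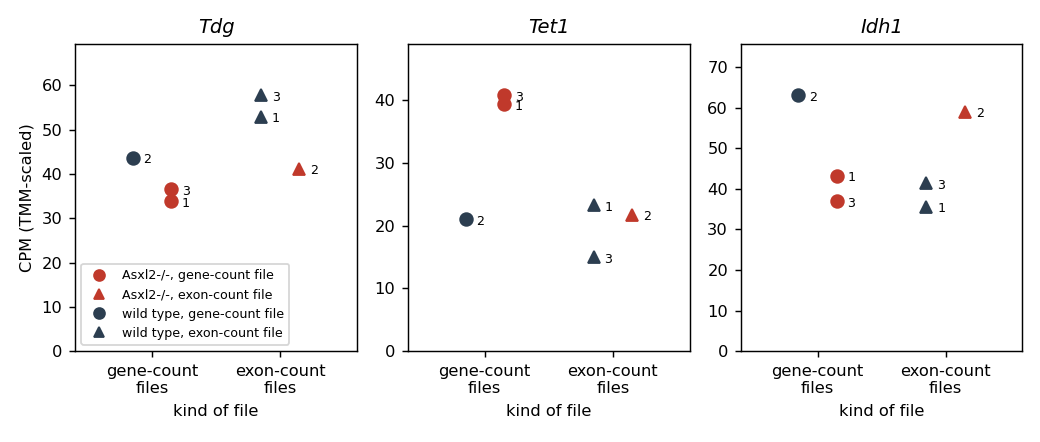
CPM of Tdg, Tet1 and Idh1 in each library by the kind of file, with the replicate number beside each symbol. Red marks Asxl2-/- and dark blue control libraries. Tdg is lower in Asxl2-/- libraries in both kinds of file, Tet1 is higher in Asxl2-/- in the gene-count files (39.3 and 40.8 against 21.0) and lies between the controls in the exon-count files, and Idh1 goes in opposite directions.

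The exon-count files also show which transcript starts were in use, from 1 Asxl2-/- and 2 control libraries, so the shares carry counting intervals and no test between groups. Among the first exons of Dnmt1, most counts fell on the somatic one (chr9:20952708-20952979). It held 712 counts in Asxl2-/- replicate 2 and 734 and 604 in control replicates 1 and 3, or 1.38%, 1.55% and 1.40% of the Dnmt1 exon counts. The oocyte-specific first exon (chr9:20959733-20959888) had 0 counts in all 3 libraries, which allows a share of up to 0.00591%, 0.00646% and 0.00707%. A further alternative first exon (chr9:20951846-20952623), the one in the transcript chosen to represent the gene, had 18, 18 and 43 counts. The start with most counts is preceded by the window with 7 CpG dinucleotides and the oocyte start without counts by that with 2. The window of the little-used alternative start (chr9:20952624-20952873) has 26. It overlaps the somatic first exon, so it lies largely just downstream of the somatic start and is not a separate upstream region. For Uhrf1 the upstream first exon (chr17:56303337-56303561), behind the window with the E2F core, held 655, 661 and 679 counts, against 39, 21 and 34 at the downstream one (chr17:56304313-56304393), whose window has the more CpG dinucleotides. For Idh1 the downstream first exon (chr1:65178990-65179142) held 123, 85 and 96 counts and the upstream one (chr1:65186305-65186479) 4, 3 and 4. The ordering of starts was thus the same in all 3 libraries for each of these genes.

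Dnmt3a makes a long protein from an upstream start and a short one, known as Dnmt3a2, from a start inside the gene, and counts fell on exons of both. The first exon of the long form NM_007872 held 15, 13 and 9 counts, and that of NM_001271753 held 0 in each library. The 5 exons that occur only in long forms and not at a first-exon position, 798 bases together, held 435 counts in Asxl2-/- replicate 2 and 363 and 241 in control replicates 1 and 3. As a share of long-only and shared exon counts this was 7.40% (95% Wilson interval 6.76% to 8.10%), 6.58% (5.95% to 7.26%) and 4.97% (4.39% to 5.62%). Per base, long-only exons had 35.4%, 29.1% and 20.7% of the counts of the 16 shared exons before the last one. With the last exon included, whose 6838 bases were covered more thinly, the ratios were 88.1%, 77.6% and 57.6%, so their size depends on that exon (the split was made after the values were seen), while their order among the libraries does not. Control replicate 3 lay below both other libraries beyond counting error, so the controls differed from each other by more than Asxl2-/- replicate 2 differed from control replicate 1. The short-form first exon (chr12:3891744-3891860) held 34, 50 and 41 counts, or 0.573% (0.411% to 0.800%), 0.896% (0.680% to 1.18%) and 0.837% (0.617% to 1.13%), with overlapping intervals. Coverage toward transcript 5′ ends was alike in the 3 libraries: over 2315 genes with a single listed transcript, the first 20% of the exon bases took a median of 19.98%, 19.91% and 19.92% of the counts. The listed antisense transcript Dnmt3aos lies between Dnmt3a exons, and the libraries do not keep strand. Reads shared with the copies Dnmt3a-ps1 and Dnmt3b-ps1 in the RefSeq gene table would be uncertain in the same way as those of Tdg.
Dnmt3b is known to be spliced into forms without catalytic activity that lack a pair of exons near the 3′ end. These exons (chr2:153683608-153683677 and chr2:153684359-153684477) held 40, 42 and 38 and 75, 96 and 61 counts in Asxl2-/- replicate 2 and control replicates 1 and 3. The preceding exons held 278, 316 and 202 (149 bases) and 209, 234 and 155 (86 bases), so that the skipped pair was covered more thinly in all 3 libraries. The share of the first of the pair in the Dnmt3b exon counts was 0.652% (0.479% to 0.887%), 0.651% (0.482% to 0.878%) and 0.822% (0.600% to 1.13%), with overlapping intervals.

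**Figure D4:**
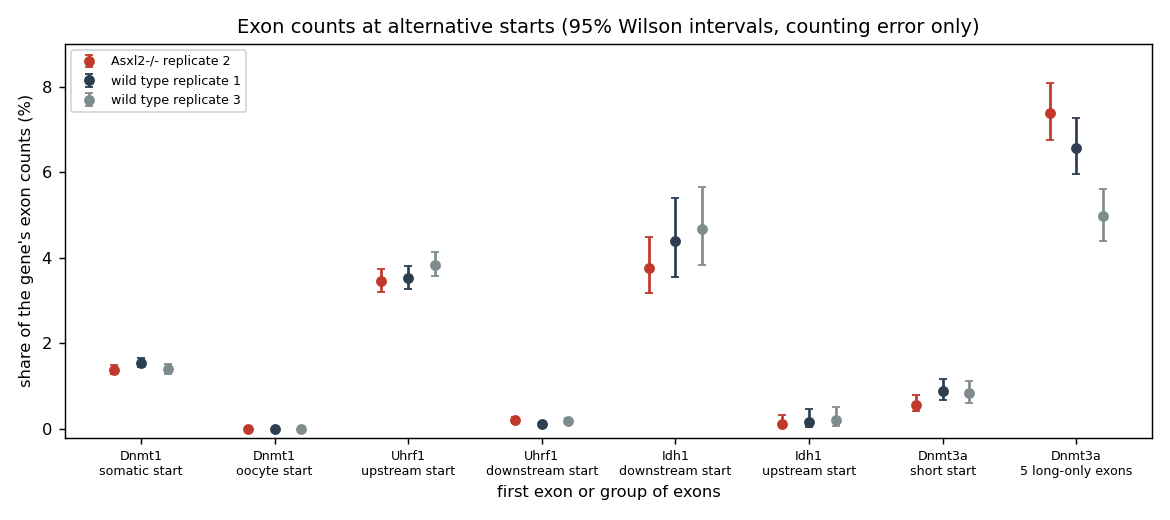
Share of a gene's exon counts, in percent, at alternative first exons of Dnmt1, Uhrf1, Idh1 and Dnmt3a and over the 5 exons found only in long Dnmt3a transcripts. Points are the 3 exon-count libraries and bars 95% Wilson intervals, which cover counting error only. The oocyte start of Dnmt1 is at 0 in each library, and the long-only share of Dnmt3a runs from 4.97% to 7.40% with control replicate 3 lowest.

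Asxl2 and Dnmt3a are near neighbours on chromosome 12, 300130 bases apart with 1 listed gene between them, Dtnb. The gene-level count of Asxl2, which includes exons outside the deletion, had a log2 fold change of 0.11 (edgeR adjusted p = 0.469). Dtnb, which encodes dystrobrevin beta, had 0.02 (edgeR adjusted p = 0.938), so none of the 3 neighbours passed the threshold. The paralog Asxl1 lies 245441 bases from Dnmt3b on chromosome 2 and had a log2 fold change of 0.03 (edgeR adjusted p = 0.893).

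The other genes of DNA methylation and its metabolism were examined as 8 lists with 112 genes, of which 96 were tested. With edgeR 0 of 96 passed the adjusted threshold, while 29 had an unadjusted p under 0.05, 9 higher and 20 lower in Asxl2-/- cells. These 29 are 30.2% of the 96 tested, near the 27.7% over all genes. By direction, 15% of all genes were higher and 12.6% lower, so the lists held more lower than higher genes, unlike all genes. DESeq2 called 18 of the 96 and limma-voom 1, beside the 16.5% and 3.04% of all genes that these tools called. The median log2 fold change over the 96 was -0.07.

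**Figure D5:**
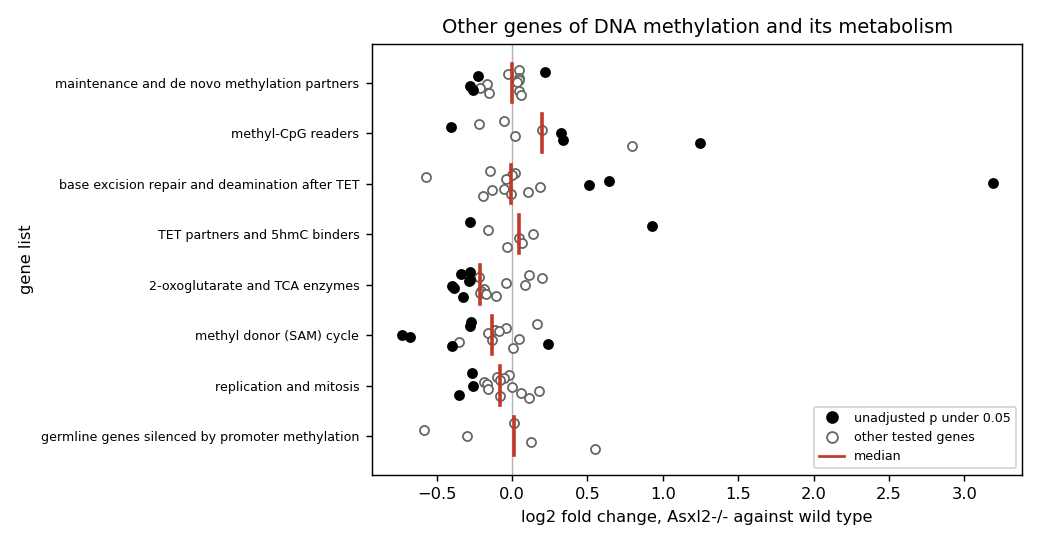
Log2 fold change in Asxl2-/- against control LSK cells for the tested genes of 8 lists around DNA methylation. Filled points have an unadjusted edgeR p under 0.05, open points do not, and red bars are list medians. The points of the 2-oxoglutarate and TCA enzymes lie mostly below 0 (14 of 17), and none of the genes shown passed the adjusted threshold with edgeR.

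Partners of the methyltransferases gave a median of 0.00 over 14 tested genes, with 1 higher and 3 lower at an unadjusted p under 0.05 and 2 lower by DESeq2. The smallest p values belonged to the corepressor Trim28 (-0.26, edgeR adjusted p = 0.120) and the H3K9 methyltransferase Ehmt2 (-0.23, adjusted p = 0.139 with edgeR). Methyl-CpG readers and members of their gene families had a median of 0.20 over 9 genes, 3 higher and 1 lower before adjustment. Counts of Zbtb4, a zinc-finger protein that binds methylated DNA, were 526, 557 and 511 for Asxl2-/- against 367, 167 and 215 for controls, in replicate order, which mixes the kinds of file. Its log2 fold change was 1.25 (SE 0.269, edgeR adjusted p = 0.068). Mbd3, of the NuRD complex, had -0.41 (SE 0.094, edgeR adjusted p = 0.0753). DESeq2 called both Zbtb4 and Mbd3.

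The base excision repair list, which holds other glycosylases, later repair enzymes and the Gadd45 genes, had a median of 0.00 over 14 tested, 3 higher and 0 lower before adjustment. Counts of the glycosylase Neil3 were 1892, 2861 and 1693 for Asxl2-/- against 2358, 1198 and 1685 for controls. Its fitted log2 difference was 0.51 (SE 0.131, edgeR adjusted p = 0.0875), and DESeq2 called it. Neil2 had only 16, 29 and 24 counts against 6, 1 and 2 (edgeR adjusted p = 0.0603), and it was the 1 gene called by limma-voom. Partners of the Tet enzymes had a median of 0.04 over 7 genes, with Cxxc5, which binds unmethylated CpG, at 0.93 (SE 0.230, edgeR adjusted p = 0.082) and Cxxc1 at -0.28 (SE 0.092, edgeR adjusted p = 0.128). DESeq2 called both.

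Enzymes that make or use 2-oxoglutarate had a median of -0.21 over 17 genes. Of these 14 were below 0, and 7 had an unadjusted p under 0.05, all 7 lower, against 12.6% of all genes lower at that level. Idh3a, a subunit of the NAD-dependent isocitrate dehydrogenase, had -0.39 (SE 0.109, edgeR adjusted p = 0.0999), and DESeq2 called 5 of the list, all lower, whereas it called 8.12% of all genes lower. Idh1 and Idh2, at -0.01 and 0.07, lay above that median. Genes of the methyl donor cycle had a median of -0.13 over 15, with 1 higher and 5 lower before adjustment and 4 lower by DESeq2. The folate enzymes Shmt2 (-0.40, edgeR adjusted p = 0.0892) and Mthfd2 (-0.68, edgeR adjusted p = 0.0927) had the smallest p values. Replication and mitosis genes, with which Dnmt1 and Uhrf1 are known to be expressed, had a median of -0.08 over 15, with 0 higher and 3 lower before adjustment. Rrm2, a ribonucleotide reductase subunit, had -0.35 (edgeR adjusted p = 0.153) and Mcm5, of the replicative helicase, had -0.26 (edgeR adjusted p = 0.157). DESeq2 called both of these as lower.

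Germline genes that promoter methylation is known to keep silent in somatic cells were the last list. Only 5 of 15 passed the filter on low counts, and these had a median of 0.01, none with an unadjusted p under 0.05 and none called by DESeq2 or limma-voom. The smallest p values were those of Sycp3, of meiotic chromosomes (0.55, edgeR adjusted p = 0.235), and Dazl, a germ cell RNA-binding protein with 7, 9 and 8 counts in Asxl2-/- and 15, 8 and 20 in control libraries (edgeR adjusted p = 0.484). Expression of these genes does not measure methylation, which was not assayed in these samples.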

How the data were processed

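RNA sequencing of sorted LSK cells from 3 Asxl2-/- and 3 control mice was analysed. The authors deposited unnormalised read counts, made on mm10 with RefSeq transcripts, as transcripts in 3 files and as exons in the other 3. The submitters' processing notes name STAR, featureCounts and DESeq2. The study's methods describe poly(A)-selected, unstranded libraries. Libraries held 25528540 to 55032075 counts, which are not comparable between the kinds of file as depth. Each of 24063 symbols was represented by its transcript with the longest summed exon length, and exon counts were summed over it.

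The 14145 genes passing filterByExpr were tested in edgeR 4.0.16 (R 4.3.3; quasi-likelihood test, TMM, design of file kind plus group, 3 residual degrees of freedom). Two-sided p-values were adjusted over all of them (Benjamini-Hochberg), with a threshold of 0.05. Nothing states separate cultures or pools beyond separate mice, so p-values measure the spread between these samples. CPM values are TMM-scaled, and SDs after removal of the file kind are somewhat too small. Shares carry 95% Wilson intervals, and a count of 0 allows up to 3 counts. Intervals and floors cover counting error only. The fit was tested on simulated data with the same dispersion, 0.0403, for every gene. It recovered 68% of 100 changes of 1 on the log2 scale and 100% of 100 changes of 2, and 2.33% of its calls were false. Smaller changes were not simulated. Promoter windows came from RefSeq (GRCm38.p6). Protein sequences were not used here.

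The genes and lists were chosen with earlier results of these data known. Named were the 10 genes, Asxl2, Asxl1, genes between Asxl2 and Dnmt3a, sex-linked Xist and Ddx3y and, from each list, every gene past the threshold (at most 5) or otherwise the 2 with the smallest p. Some genes that this rule names are not reported here. Alternatives were DESeq2 1.42.0, limma-voom 3.58.1, other scalings and filters, no file-kind term, a replicate block, the transcript with most counts, fits without 1 library and either kind of file by itself.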

Additional observations from a re-analysis of the deposited data

How the results depend on the processing

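The count of the 10 genes past the threshold was 0 and became 1 with DESeq2. It became 3 with the replicate block and file kind together (Dnmt3b, Tet1 and Tdg), a fit that called 5179 of all 14145 genes tested. That fit leaves fewer residual degrees of freedom than the main one. The count ranged from 0 to 1 when each library was left out (1, Tet1, without control replicate 1). All genes past the threshold numbered 331, against 2329 with DESeq2, 161 with library size alone, 5179 with the replicate block and file kind, and 9 to 1312 without single libraries (16, 659 and 96 without Asxl2-/- replicates 1, 2 and 3, and 1312, 124 and 9 without control replicates 1, 2 and 3). The other pathway genes went from 0 to 18 with DESeq2, 1 with limma-voom, 2 without the file-kind term, 30 with the replicate block and file kind, 1 with the replicate block alone and 0 to 11 without single libraries (2 without Asxl2-/- replicate 2, 11 without control replicate 1). The replicate numbers gave no clear pairing of the samples: correlations of same-numbered deviations were 0.31, 0.046 and 0.0083. The first was the highest of all pairs, while Asxl2-/- replicates 2 and 3 correlated best with controls of another number. Each same-numbered pair crosses the kinds of file, so these values cannot decide whether the samples were paired. The median log2 fold change of all genes was 0.0985 with scaling by library size and -0.047 with median-ratio scaling, against 0.000523 in the main fit. Signs turned for 4 genes. Dnmt1 became -0.000237 with DESeq2, -0.000402 under median-ratio scaling, -0.11 without the file-kind term and -0.121 with the replicate block alone. Tet3 became -0.0202 both with DESeq2 and under median-ratio scaling, and spanned -0.015 to 0.063 without single libraries. Idh1 became 0.0292 with limma-voom, 0.0865 with library size, 0.00735 with the replicate block alone and -0.65 to 0.62 without single libraries. Idh2 became -0.0521 without the file-kind term, -0.0912 with the replicate block alone and -0.13 to 0.28 without single libraries. The cause of these changes was not tested. Leaving out a library also lowers the number of samples, and 1 knockout exon-count library limits all exon shares.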
